A study of Mus musculus with 7 samples.

Results

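MN9D is a mouse dopaminergic neuroblastoma line, a hybrid of embryonic midbrain neurons and neuroblastoma cells. The values described here are those of the 3 arrays hybridised with RNA from MN9D cells that express an empty vector, out of 7 arrays in all. They were chosen by their titles, and no other array entered any value below. The other 4 arrays hold RNA of MN9D cells that overexpress the alpha and beta chains of mouse haemoglobin. A control array that did not pass the submitters' quality assessment is not analysed here.

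All cells belong to 1 line, and every control cell carries the empty vector, so the levels are those of a vector-bearing line and not of the unmodified parent line. The labels do not say whether the 3 RNA samples came from separate cultures, so the spread between arrays may be technical. Total RNA was treated with DNase, labelled with biotin in a one-cycle protocol and hybridised to a mouse expression array. Each value is the log2 signal of a probe set, a group of short probes for a transcript. The highest of a gene's probe sets, by its mean over the 3 arrays, stood for the gene, which gave 12393 genes from 20380 probe sets with 1 gene symbol. As log2 signal also depends on how well the probes bind, a rank or percentile among genes describes signal and not the number of transcripts. In bulk RNA, fewer cells with a transcript and less of it in each cell cannot be told apart.

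Midbrain dopamine neurons make dopamine from tyrosine by tyrosine hydroxylase, which needs the cofactor tetrahydrobiopterin, and then by aromatic L-amino acid decarboxylase. Vesicular transporters load the amine into vesicles, and the plasma membrane dopamine transporter takes it back up after release. In the embryo these neurons arise under Otx2, Lmx1a, Foxa2, En1, Nr4a2 and Pitx3. Sympathetic neurons and adrenal chromaffin cells also make catecholamines, but arise from the neural crest under Phox2a, Hand2 and Gata factors, and neuroblastoma is a tumour of that lineage.

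The values hold no call of presence, so the levels were read against 196 reference genes whose products belong to sensory cells, exocrine glands, lens, cornified skin, milk and sperm. Their median was 5.96 and their range 3.84 to 10.15. The 95th percentile of their means, 8.68, is called the reference bound below, and 10 reference genes lay above it, the brightest being Cela1, an elastase of exocrine glands. A mean above the bound does not prove expression, and a mean at or below it does not prove absence. The probe set that names Rpl39 alone, a ribosomal protein gene used by all cells, lay below it at 8.24 ± 0.043 (SD, n = 3, as for every ± below), while a probe set shared with Gm32211, left out for its several symbols, had 14.69 ± 0.050.

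Of the 12393 genes, 6950 (56.1%) had a mean above the reference bound, 3856 (31.1%) lay between it and the reference median, and 1587 (12.8%) lay at or below that median. The share above the bound was 71.4% in the 4956 genes with several probe sets and 45.9% in the 7437 with 1. Of the 196 reference genes, 35 had several. The list shares below were not adjusted for the number of probe sets. The gene means ran from 3.74 for Adam25, a gene of a sperm protein family, to 15.02 for Rps29, a protein of the small ribosomal subunit. Their median was 9.23, and the middle 80% lay between 5.68 and 12.09. The counts above the bound on the single arrays were 6950, 6962 and 6947, and 12198 genes lay on the same side of it on all 3 arrays. The distribution had a dim and a bright mode on either side of the bound.

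**Figure D1:**
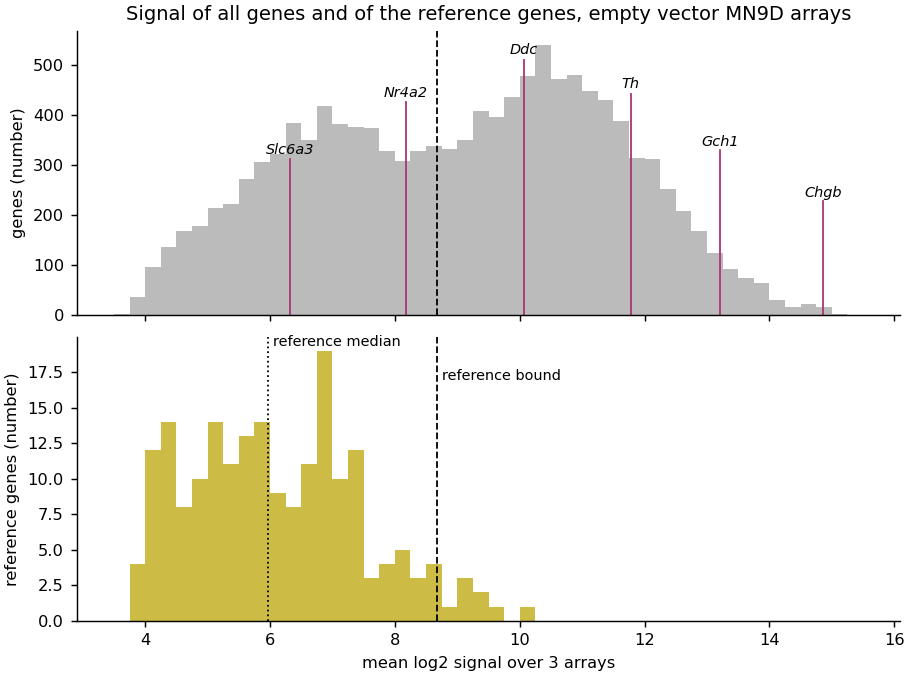
The upper histogram counts all 12393 genes by mean log2 signal over the 3 empty vector arrays, with 6 catecholamine, midbrain and granule genes marked, and the lower one counts the 196 reference genes. The dashed line is the reference bound (8.68) and the dotted line the reference median (5.96): Th, Ddc, Gch1 and Chgb lie to the right of the bound, and Nr4a2 and Slc6a3 to its left.

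The enzymes that make dopamine were bright. Th, tyrosine hydroxylase, the rate-limiting enzyme, gave 11.68, 11.84 and 11.82 on arrays 1, 2 and 3 (mean 11.78 ± 0.086), a level above 86.6% of genes and above every reference gene. Gch1, GTP cyclohydrolase, which starts the synthesis of tetrahydrobiopterin, gave 13.07, 13.22 and 13.34 (13.21 ± 0.14), with array 1 the lowest for both genes. Ddc, aromatic L-amino acid decarboxylase, gave 9.99, 10.17 and 10.06 (10.07 ± 0.093), near the middle of the bright mode.

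The other genes of the tetrahydrobiopterin cofactor lay above the bound too. Qdpr, the reductase that regenerates it, had a mean of 12.77 ± 0.055, Pcbd1 10.98 ± 0.009, Pts 10.07 ± 0.073 and Spr 9.99 ± 0.11. Pcbd2, a close relative of Pcbd1, had 10.55 ± 0.017. Of the 20 genes measured in the list of catecholamine synthesis and handling, 13 lay above the bound, against 56.1% of all genes, with a list median of 9.65 against 9.23 over all genes.

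Enzymes that degrade or further convert dopamine, and Cyb561, also lay above the bound, apart from Aldh1a1 below. Aldh2, an aldehyde dehydrogenase, had 10.21 ± 0.12 and Cyb561, the cytochrome that supplies electrons inside catecholamine vesicles, 11.12 ± 0.044. Maoa, monoamine oxidase A, had 9.30 ± 0.061. Dbh, dopamine beta-hydroxylase, which makes noradrenaline, gave 9.03, 9.17 and 9.26 (9.16 ± 0.12), and Pnmt, which makes adrenaline, 9.08, 8.96 and 9.12 (9.05 ± 0.085). Both are enzymes of noradrenergic or adrenergic cells, and both lay a little above the bound on all 3 arrays. Pnmt and Aldh2 passed through 1 of their 3 probe sets each, the lowest having 6.77 and 7.14.

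The genes of transport and reception were dim. Slc6a3, the dopamine transporter, gave 6.27, 6.29 and 6.42 (6.33 ± 0.083), a level higher than 56.6% of the reference genes. Slc18a1, a vesicular monoamine transporter of chromaffin cells, had 7.17 ± 0.19, and Slc6a2, the noradrenaline transporter, 6.67 ± 0.089. Drd4 had 7.35 ± 0.11, Drd2, the autoreceptor of dopamine neurons, 7.09 ± 0.037 and Drd3 5.59 ± 0.030. Aldh1a1, an enzyme of ventral midbrain dopamine neurons, was the dimmest of the list at 4.32 ± 0.062. None of these 7 reached the bound on any array. The vesicular transporter Slc18a2 is not analysed here. Of the markers that define the labelled dopaminergic type, Th and Ddc thus lay above the bound and the transporter Slc6a3 below it.

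**Figure D2:**
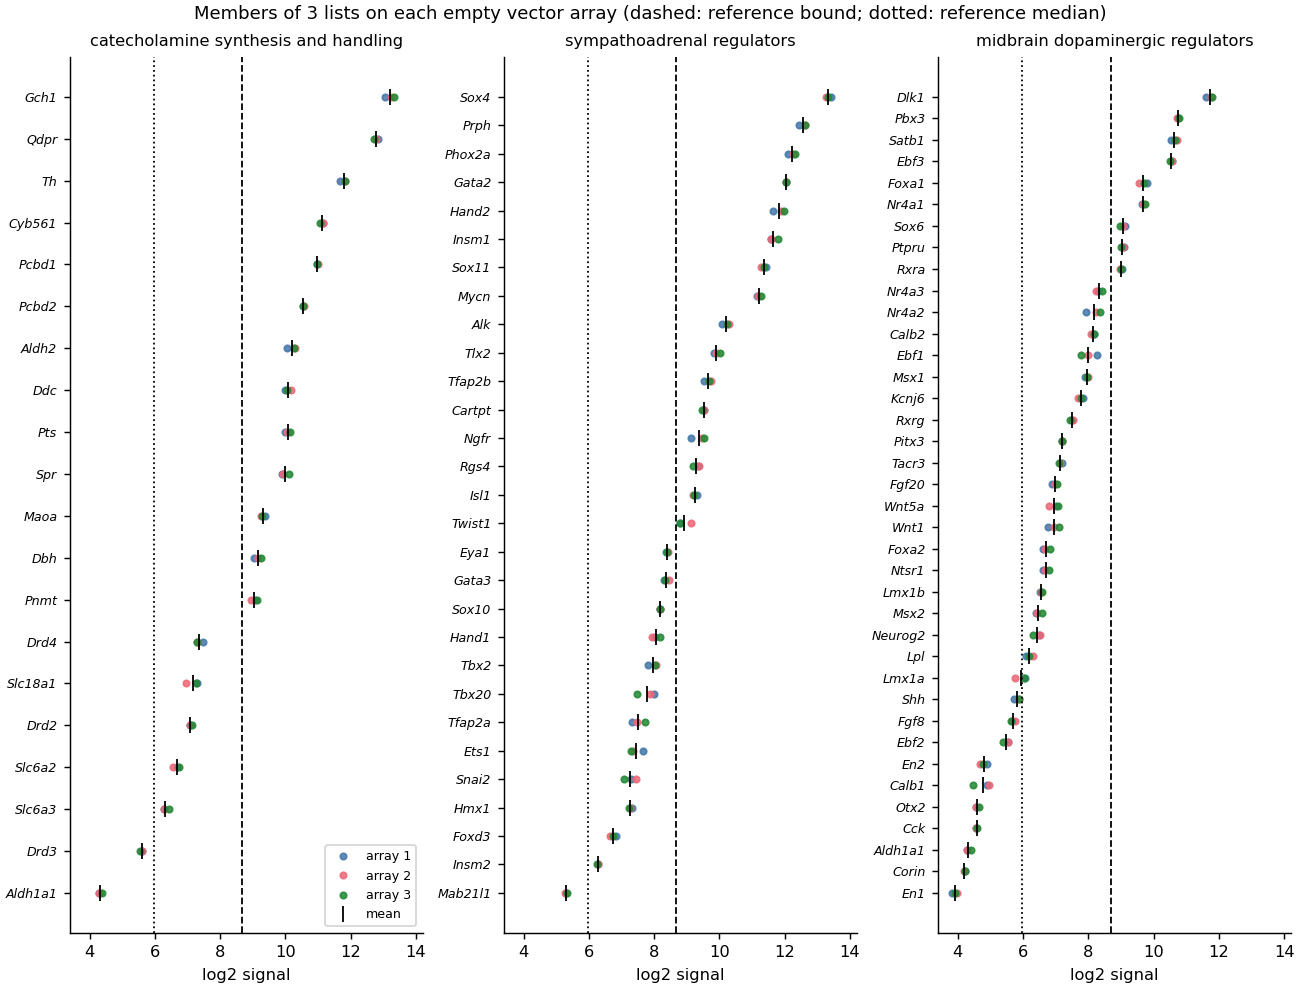
Each row is a gene, the coloured points its log2 signal on arrays 1, 2 and 3 and the black tick their mean, for catecholamine genes (left, 20), sympathoadrenal regulators (middle, 29) and midbrain dopaminergic regulators (right, 38); dashed and dotted lines are the reference bound and reference median. The synthetic enzymes lie right of the bound and the transporters and receptors left of it, and most midbrain regulators lie left of it.

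Of the 38 midbrain dopaminergic genes measured, 9 lay above the bound and 29 did not, a smaller share than that of all genes. Dlk1, a Notch ligand relative found in midbrain dopamine neurons, was the brightest, with 11.60, 11.76 and 11.80 (11.72 ± 0.11). Pbx3 had 10.75 ± 0.029, Satb1 10.63 ± 0.089, Ebf3 10.54 ± 0.046, Foxa1 9.69 ± 0.13 and Nr4a1 9.68 ± 0.053. Sox6 at 9.05 ± 0.081, Ptpru at 9.04 ± 0.046 and Rxra were the 3 closest above the bound. Without the probe sets whose suffix marks probes shared by several transcripts (called marked probe sets below), 5 of the 31 genes left were above the correspondingly recomputed bound of 8.33. Of all 38 genes, 13 lay above the 90th percentile of the reference genes and 6 above the 99th.

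Otx2, Lmx1a, Foxa2, En1, Nr4a2 and Pitx3, named above as factors of the lineage, lay below the bound, while Foxa1 and Sox6 lay above it. Nr4a2 (Nurr1), which drives Th in midbrain neurons, gave 7.93, 8.24 and 8.35 (8.17 ± 0.22), with array 1 the lowest. With the 90th percentile of the reference genes as bound, 7.99, the mean of Nr4a2 lay above the bound. Pitx3 gave 7.20, 7.19 and 7.20 (7.19 ± 0.006). Foxa2 had 6.70 ± 0.11, Lmx1b 6.55 ± 0.027, Lmx1a 5.95 ± 0.17 and Shh, the floor plate signal, 5.81 ± 0.082. Otx2, a midbrain determinant, had 4.60 ± 0.046, En2 4.79 ± 0.10 and En1 3.91 ± 0.075, and 0.510% of the reference genes were dimmer than En1. Nr4a3, Nr4a2 and Calb2 were the 3 closest below the bound, and the neuropeptide gene Cck and the membrane protease gene Corin, both found in subsets of these cells, had 4.58 ± 0.026 and 4.21 ± 0.013.

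Several sympathoadrenal regulators were bright, although the list as a whole was near the background. Of 29 measured, 16 lay above the bound, against 56.1% of all genes. Phox2a, the homeodomain factor of autonomic neurons, gave 12.09, 12.26 and 12.31 (12.22 ± 0.11). Gata2 gave 12.04 on all 3 arrays, and Hand2, a bHLH factor of sympathetic neurons, 11.64, 11.88 and 11.98 (11.83 ± 0.17). All 3 were above every reference gene.

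Sox4 had 13.33 ± 0.068, Prph, a neurofilament gene of peripheral neurons, 12.56 ± 0.11, Insm1, a factor of neuroendocrine cells, 11.65 ± 0.11 and Sox11 11.36 ± 0.077. Mycn, the oncogene amplified in aggressive neuroblastoma, had 11.20 ± 0.053 and Alk, a receptor kinase mutated in that tumour, 10.20 ± 0.11. Tlx2, Tfap2b, Cartpt, Ngfr, Rgs4, Isl1 and Twist1 lay between 8.91 and 9.91. The bright value of Prph came from 1 of 4 probe sets. Eya1, Gata3 and Sox10 lay just below the bound at 8.39, 8.36 and 8.18. Hand1, Tbx20, Tfap2a, Hmx1, Foxd3 and Insm2 had 8.05, 7.78, 7.50, 7.26, 6.74 and 6.28, and the dimmest member of the list had 5.30.

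Granins are the acidic cargo proteins of dense core vesicles, the large vesicles that store peptides and amines. Chgb, chromogranin B, was the seventh brightest of all genes, with 14.87, 14.87 and 14.85 (14.86 ± 0.013), among ribosomal protein genes. Scg2, secretogranin II, gave 13.95, 14.08 and 14.07 (14.03 ± 0.073), Scg5, the chaperone of prohormone convertase, 13.42 ± 0.033 and Scg3 12.77 ± 0.062. Cpe, carboxypeptidase E, had 12.36 ± 0.036 and Ptprn, a granule membrane protein, 12.30 ± 0.074. Of 14 such genes 10 (71.4%) lay above the bound, against 56.1% of all genes.

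Chga, chosen after its values were seen, had 9.84 ± 0.095. Pcsk1, a convertase that cuts prohormones, had 6.56 ± 0.16 and Pam, the enzyme that amidates peptides, 6.75 ± 0.078, both below the bound, unlike the carboxypeptidase Cpe. Neuropeptide genes themselves were mostly dim, with 3 of 35 (8.57%) above the bound, against 56.1% of all genes. These 3 were Cartpt (9.51 ± 0.043), Oxt (9.16 ± 0.17) and Adm (9.05 ± 0.085), and the list median was 6.79.

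The 8-base sequence TGACGTCA, the full cyclic AMP response element, which reads the same on both strands, lies in the 250 bases before the starts of Th, Chgb, Scg2 and Pcsk1. These 4 promoters are printed because they are those with the motif in the catecholamine and granin lists. The first 3 genes are among the bright ones above and the fourth is dim. Gch1, Scg5 and Scg3, also bright, had no such motif in their windows. The motif is in capitals, bases read 5′ to 3′ on the strand of the gene and come from RefSeq with the GRCm38.p6 build, where the Th window lies on chromosome 7 from 142899996 to 142900245, minus strand, Chgb on chromosome 2 from 132781392 to 132781641, plus strand, Scg2 on chromosome 1 from 79440027 to 79440276, minus strand, and Pcsk1 on chromosome 13 from 75089607 to 75089856, plus strand.
Th: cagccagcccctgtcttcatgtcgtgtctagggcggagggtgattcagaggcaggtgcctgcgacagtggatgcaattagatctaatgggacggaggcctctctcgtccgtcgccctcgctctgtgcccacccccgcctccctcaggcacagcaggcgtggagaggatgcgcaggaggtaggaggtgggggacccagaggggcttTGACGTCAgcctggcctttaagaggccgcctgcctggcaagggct
Chgb: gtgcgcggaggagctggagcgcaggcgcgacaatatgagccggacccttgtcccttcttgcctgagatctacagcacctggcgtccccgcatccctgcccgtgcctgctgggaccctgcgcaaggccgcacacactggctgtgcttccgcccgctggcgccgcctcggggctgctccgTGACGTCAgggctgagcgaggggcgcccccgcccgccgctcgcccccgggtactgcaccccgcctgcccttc
Scg2: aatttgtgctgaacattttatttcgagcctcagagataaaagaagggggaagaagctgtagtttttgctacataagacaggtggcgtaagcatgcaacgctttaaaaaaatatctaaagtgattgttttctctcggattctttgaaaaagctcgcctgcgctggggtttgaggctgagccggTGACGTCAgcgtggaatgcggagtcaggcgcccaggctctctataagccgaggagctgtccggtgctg
Pcsk1: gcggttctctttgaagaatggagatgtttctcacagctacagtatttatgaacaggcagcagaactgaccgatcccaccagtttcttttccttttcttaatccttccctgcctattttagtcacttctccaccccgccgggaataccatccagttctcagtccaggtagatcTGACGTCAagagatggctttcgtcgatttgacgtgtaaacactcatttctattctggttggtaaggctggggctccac

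The motif begins at position -45 from the gene start in Th, -72 in Chgb, -68 in Scg2 and -78 in Pcsk1. It occurred in 2.38% of the 7938 array genes with 1 promoter each and in 1.55% of all 32851 promoter windows in the table. Among the lists it was in 3 of 13 granin and processing genes, 1 of 15 catecholamine genes, 2 of 20 sympathoadrenal genes and 1 of 28 midbrain genes. These counts describe letters in the windows and say nothing of binding.

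Promoter composition varied with signal across genes. In the 7938 genes, the median number of CpG dinucleotides in the 250 bases before the start was 4, 8, 16, 18 and 18 from the dimmest to the brightest of 5 equal bands of level. The letters TATAAA, searched at any position of the window on the strand of the gene, were in 14.5% of windows in the dimmest band and 4.22% in the brightest. Such a match need not be a TATA box. Median GC content was 50% in the dimmest band and 60.8% in the brightest. TGACGTCA was in 1.13% and 3.72%. Spearman's rho of CpG number with level was 0.49 across these genes, which share arrays and base composition and are not independent.

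Genes of neurons in general were bright. Of 42 measured, 31 (73.8%) lay above the bound, against 56.1% of all genes, with a median of 11.22 against 9.23 over all genes. Dpysl3, a collapsin response mediator, had 13.71 ± 0.004, Stmn3, a microtubule regulator, 13.40 ± 0.036, Crmp1 13.39 ± 0.033 and Map1b, a microtubule-associated protein, 13.38 ± 0.052. L1cam, an axonal adhesion molecule, had 13.08 ± 0.010 and Basp1, a growth cone protein, 12.93 ± 0.069.

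The neurofilament genes parted. Chosen after their values were seen, Nefh gave 11.91, 12.10 and 12.07 (12.02 ± 0.10) and Ina 11.24 ± 0.070. The light and medium chains, Nefl and Nefm, had 4.89 ± 0.060 and 4.35 ± 0.006, and Cntn1 and Nlgn1 had 5.05 and 4.94. Gap43, Tubb3, Elavl3 and Elavl4, named the same way, had 12.39, 11.42, 11.73 and 11.94. Dcx, Rbfox3 (NeuN) and Map2, also named after their values were seen, were among the 11 members not above the bound, at 5.78 ± 0.18, 6.78 ± 0.16 and 8.45 ± 0.26.

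Of 44 genes of synaptic vesicles and exocytosis, 28 (63.6%) lay above the bound, near the 56.1% of all genes. Snap91 and Syt11 were brightest, each at 12.35, and Snap25, part of the fusion complex, had 12.04 ± 0.084. Dnajc5 had 12.22 ± 0.010, Syt4 12.10 ± 0.035 and Vamp3 11.94 ± 0.038. Syp, Stx1a, Vamp2, Syn1 and Syt1, named after their values were seen, lay between 10.46 and 11.62. Cadps and Cadps2, which prime dense core vesicles, were dim at 4.38 ± 0.012 and 5.54 ± 0.13.

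Genes of other transmitters were mostly dim, with a smaller share above the bound in each list than the 56.1% of all genes. None of 14 serotonin genes lay above the bound, the brightest being the receptor gene Htr1b at 8.38 ± 0.012, and Tph1, the serotonin-making enzyme, had 6.87 ± 0.16. The count became 1 with the median over a gene's probe sets, without the marked probe sets or with the 90th percentile as bound. None of 8 histamine and adrenergic receptor genes did either. Among 26 GABA and glycine genes 4 did, led by the glycine transporter Slc6a9 at 10.51 ± 0.069, and the GABA-making enzyme Gad2 lay below the bound at 8.42 ± 0.15.

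Of 22 glutamate genes 5 (22.7%) lay above the bound, against 56.1% of all genes, led by Glud1, glutamate dehydrogenase, at 11.21 ± 0.045. Slc17a6, the vesicular glutamate transporter VGLUT2, gave 11.28, 11.11 and 11.13 (11.17 ± 0.095), and its second probe set had 10.71. Glutamate receptor genes were dimmer, with Grik5 at 9.77 ± 0.14, Gria2 at 8.69 ± 0.11 and Gria1 at 4.57 ± 0.081. Of 22 acetylcholine genes 4 (18.2%) lay above the bound, also a smaller share. They were the choline transporter Slc44a1 (11.05 ± 0.005), acetylcholinesterase Ache (9.18 ± 0.18) and the ganglionic receptor subunit genes Chrna3 (9.02 ± 0.13) and Chrnb2 (8.89 ± 0.071).

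Few ion channel genes lay above the bound, compared with 56.1% of all genes. Of 62 potassium channel genes 6 lay above the bound, with Kcnh2, the ERG channel, brightest at 10.93 ± 0.031, and the other 5 lying between 8.68 and 9.05. The count was 12 with the 90th percentile as bound, 4 without array 3, and 1 with the 99th percentile or with single reference genes alone. Of 9 sodium channel genes 2 did: the auxiliary subunit gene Scn3b at 10.78 ± 0.041 and Scn8a at 9.38 ± 0.20. Of 23 genes listed under calcium channels 3 did. Cacng3 and Cacng4, named as auxiliary gamma subunits and not as pores, had 9.63 and 9.51. The T-type Cacna1h had 8.89, and another of its probe sets lay below the bound at 6.49. Trpm7, a channel with a kinase domain found in most cells, had 12.32 ± 0.027.

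The receptor for GDNF-family factors, Ret, named after its values were seen, lay at 8.71 ± 0.085, on the bound. Its coreceptor genes Gfra1 and Gfra2, also named after their values were seen, had 6.75 and 8.56, and the ligand Gdnf 5.91 ± 0.096. Manf, a secreted factor of the endoplasmic reticulum, had 12.36 ± 0.070. In all, 9 of 24 neurotrophic genes (37.5%) lay above the bound, a smaller share than the 56.1% of all genes.

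Of 14 genes of synucleins and Parkinson disease, 12 (85.7%) lay above the bound, against 56.1% of all genes, with a median of 10.85 against 9.23. Vps35, of the retromer, had 13.04 ± 0.049, Uchl1, a ubiquitin hydrolase of neurons, 12.82 ± 0.080 and Park7 (DJ-1), a redox-sensitive protein, 12.66 ± 0.083. Mapt, tau, had 12.47 ± 0.16, Pink1, a mitochondrial kinase, 9.24 ± 0.070 and Sncg 8.84 ± 0.097. The kinase gene Lrrk2 gave 5.49, 5.53 and 5.49 (5.50 ± 0.022) and Vps13c 4.80 ± 0.089, both far below the bound.

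Markers of other cell types were largely dim, with a smaller share above the bound in every such list than the 56.1% of all genes. None of 18 microglia and macrophage genes lay above the bound, the brightest, Trem2, having 8.60, 8.52 and 8.81 (8.64 ± 0.15) and the leukocyte gene Ptprc 4.44 ± 0.079. Without array 1 or without array 2 the count was 1. None of 27 liver genes did, and 1 of 18 lymphocyte genes did (Ighm, 9.09 ± 0.027). Of 15 astrocyte genes 3 did, with Gfap below at 7.74 ± 0.068 and Aqp4 at 5.41 ± 0.083. Of 18 endothelial genes, Ramp2 and Egfl7 did, at 9.99 and 9.91.

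In several lists, 1 or 2 genes stood far above the others. Vim, an intermediate filament gene also found in cultured and progenitor cells, had 12.55 ± 0.040, and Fbln1 11.33 ± 0.063, while the collagen Col3a1 had 5.24 ± 0.081. Pmp22 and Cnp, genes of myelin and other cells, had 10.92 and 10.84, while Olig2 and Mog had 4.20 and 4.26. Myh3, embryonic myosin heavy chain, gave 12.31, 12.47 and 12.42 (12.40 ± 0.082), with the other muscle myosin genes Myh2, Myh4 and Myh8 at 4.55, 4.73 and 4.59.

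Grhl2, an epithelial transcription factor, gave 12.08, 12.09 and 12.09 (12.09 ± 0.004) on its brightest probe set, and of its others 1 had 9.45, 1 had 8.05 and the dimmest lay near the reference median. Cdh1, the epithelial cadherin, had 4.51 ± 0.13 and Krt18 5.23 ± 0.046. Tal1, an erythroid transcription factor, had 10.60 ± 0.087, while Hemgn and Slc4a1, genes of red cell precursors, had 4.36 and 5.81. Whether RNA of another cell type had a part in these values was not tested.

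**Figure D3:**
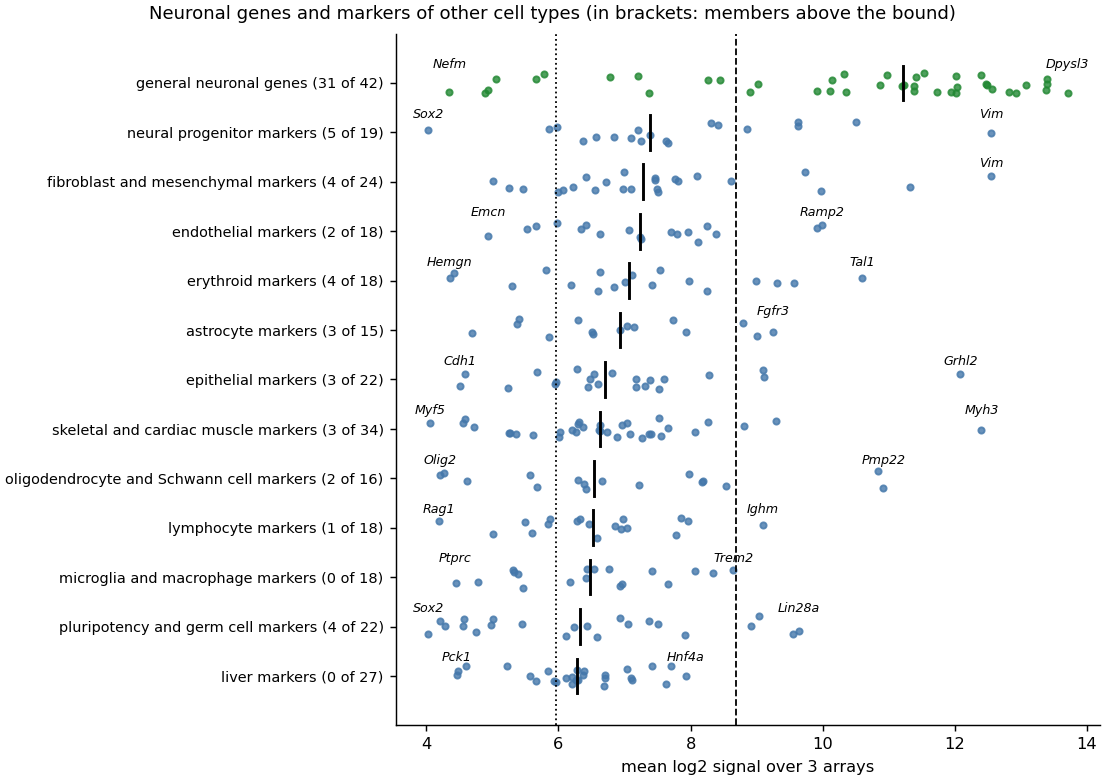
Each point is a gene's mean log2 signal over the 3 arrays, in the list of general neuronal genes (top, green) and in 12 lists of markers of other cell types (blue), with the list median as a black bar, the reference bound dashed and the reference median dotted. Only the neuronal median (11.22) lies right of the bound, and single genes such as Myh3, Grhl2, Vim and Tal1 stand apart to the right in their lists.

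The adult alpha globin genes, read by 3 probe sets that match both copies, had 6.25, 8.68 and 7.15. The beta globin probe set that matches 4 gene copies had 8.80 ± 0.060. The values 8.68 and 8.80 lay just above the bound. Probe sets that name 1 gene alone lay below it, at 5.96 for Hba-a1, 7.18 for Hba-a2, and 6.28 and 4.47 for Hbb-b2. Cygb, cytoglobin, and Ngb, neuroglobin, had 8.73 ± 0.13 and 8.61 ± 0.093, on either side of the bound.

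Genes of growing cells were bright. Of 33 mitosis genes 32 lay above the bound, and of 38 replication genes 34 did, against 56.1% of all genes. Birc5 and Top2a had 12.18 and 12.17, and Pcna, the replication clamp, 13.30 ± 0.055. Cdk4 had 12.79 ± 0.025 and Myc 12.55 ± 0.11. The inhibitors Cdkn1b and Cdkn1a had 11.94 and 11.41, with Mdm2 at 11.95 ± 0.046. Ccnd1 had 11.74 ± 0.071, while Ccnd2, Cdk6 and Cdkn1c had 6.99, 6.69 and 5.64.

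The brightest genes were those of protein synthesis. Of the 25 brightest, ribosomal proteins made up the most, and Eef1a1, Tpt1, Actb and Cox5b were among the others. The 26 translation factor genes were all above the bound, with a median of 13.72. Of 76 respiratory chain genes 70 (92.1%) were, with a median of 12.99. Over all genes the share was 56.1% and the median 9.23. The respiratory chain genes not above it included the tissue-restricted Cox4i2, Cox8b, Cox6b2 and Cox7a1, at 7.45, 7.26, 6.87 and 6.01. Hspa8, the constitutive chaperone, had 14.45 ± 0.009, while the heat-inducible Hspa1a and Hspa1b had 6.37 and 7.13.

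Of 28 genes of class I antigen presentation and interferon, 18 (64.3%) lay above the bound, near the 56.1% of all genes. B2m, the light chain of class I molecules, had 13.93 ± 0.069, and the heavy chains H2-D1 and H2-K1 13.42 and 12.95. The interferon-induced Mx1, Ifit1 and Ifit3 had 6.05, 6.24 and 6.75. Of 12 class II genes 3 (25%) lay above the bound, a smaller share than that of all genes. Cd74, the invariant chain, gave 12.01, 12.11 and 12.13 (12.08 ± 0.065), and Cd40 had 11.26 and H2-Ea 9.33. The chains H2-Ab1 and H2-Aa had 7.94 and 6.11, and Ciita, the class II regulator, 6.65 ± 0.10.

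Among developmental regulators, 2 of 31 Hox genes (6.45%) lay above the bound, against 56.1% of all genes. They were Hoxc9 at 10.74 ± 0.064 and Hoxc6 at 8.86 ± 0.041. Gata4 had 10.17 ± 0.034, Lmo1, an oncogene of neuroblastoma, 11.08 ± 0.15 and Foxc2 and Foxd1 11.01 and 10.85. Sox2, a neural stem cell factor, was among the dimmest at 4.03 ± 0.12. Rest, the repressor of neuronal genes, had 9.41 ± 0.069 through 1 of 3 probe sets, the others having 6.45 and 6.56. Xist, the RNA of the inactive X chromosome, gave 13.89, 13.89 and 13.72 (13.83 ± 0.10), and its other probe sets were above the bound too. The Y-linked Kdm5d, Uty and Eif2s3y had 5.57, 5.22 and 4.19.

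**Figure D4:**
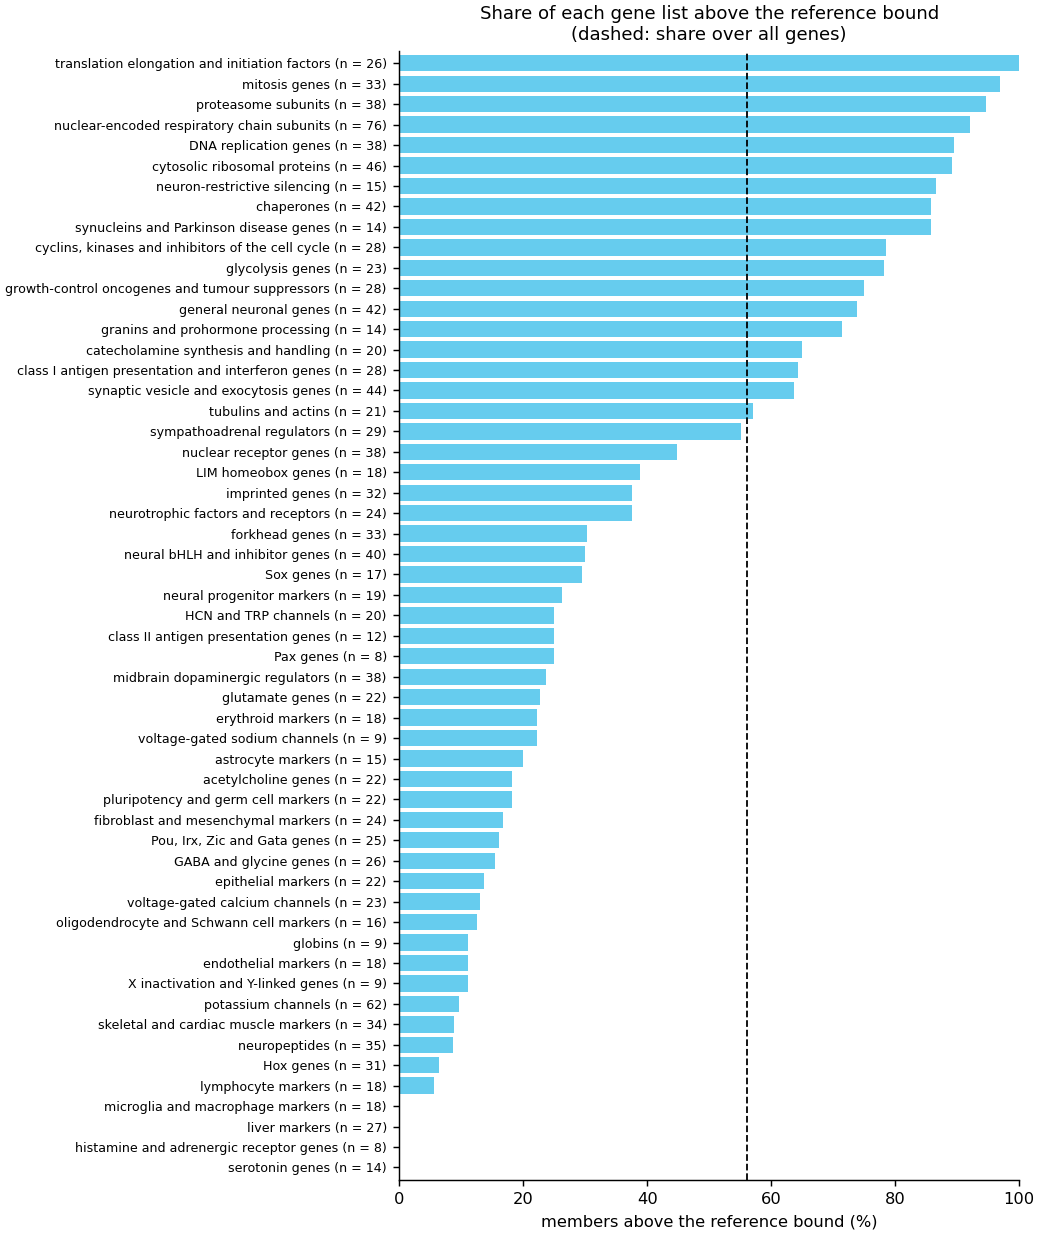
Bars give the percentage of measured members above the reference bound in each gene list (n, members measured), and the dashed line the 56.1% over all genes. Translation, mitosis and proteasome genes lie at the top, and serotonin, histamine and adrenergic receptor, liver and microglia genes at 0.

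The arrays were close to each other. Pearson's r over the 22626 probe sets that are not controls was 0.9985 to 0.9986 for the 3 pairs, which share probes and normalization. The median SD was 0.064, and 95% of genes had an SD under 0.165. Median SD fell from 0.079 in the dimmest of 5 equal bands of level to 0.050 in the brightest. Means of the 18 hybridisation control probe sets were 9.40, 9.66 and 9.61. In 994 genes (8.02%) at least 2 arrays held the same value, and in 75, Sox10 among them, all 3 did.

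Of the genes above the bound, Pnpla6, a lysophospholipase of neurons, had the largest SD, with 10.48, 10.73 and 9.99 (10.40 ± 0.37). Ovgp1, Pan2, Hypk, Phf20l1, Kdm6a, Lhx1 and Prkdc were lowest on array 3 as well. All of these but Phf20l1 were highest on array 2. Msi2 and Atf7 were lowest on array 2. Among the 100 most variable, array 2 was the farthest from the others in 39, in 32 of them on the high side, and array 3 in 32, in 28 of them on the low side.

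**Figure D5:**
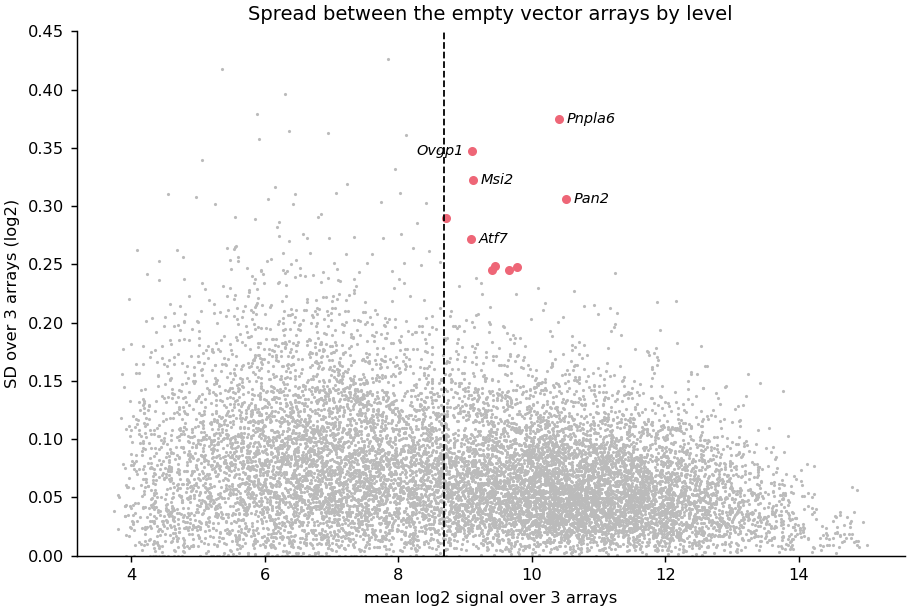
Each point is a gene, with its mean log2 signal over the 3 arrays on the horizontal axis and its SD over them on the vertical axis; the 10 genes with the largest SD above the reference bound (dashed) are red. The cloud narrows to the right, and Pnpla6, at 0.37, is the highest red point.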

How the data were processed

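Gene expression was measured in 3 RNA samples of MN9D cells with an empty vector. Per the submitters' processing notes, the authors used RMA, and the deposited values are log2 signals per probe set. Its version, and which arrays were normalized together, are not given in the sources used. Values were used as deposited; 64 control probe sets were left out of the gene table, and probe sets with several symbols (691) or none (1555) named no gene, except globins. Gene names are those of the platform annotation. Depth does not apply to arrays, and their number, 3, limits the precision. With 1 group there was no test. Genes to be named were drawn from the 25 brightest, all members of 3 lists (catecholamine, midbrain, sympathoadrenal) and the 10 with the largest SD. From every other list, up to 6 brightest and 4 dimmest were drawn. Not every gene so drawn is named in the text. The midbrain and sympathoadrenal members left out all lay below the bound, among them the midbrain genes Ebf1, Msx1 and Kcnj6 at 8.01, 7.96 and 7.77. The plot with a row for each gene shows all members of the 3 lists. Other genes are said to be chosen after their values were seen, apart from Adam25 and Cela1, the ends of a range. Members and lists were chosen with earlier results of these data known. Alternatives were the median over probe sets, probe sets without the suffixes _s_at, _x_at and _a_at, other bounds (90th and 99th percentile, single reference genes), a common median and leaving out each array. The code for the choice of probe set, ranks and bound was run on simulated data (Python 3.11.15, numpy 2.4.6, pandas 2.3.3). There the highest probe set held the true level by design. The run checks the code, and not whether the highest probe set or the bound suits real genes.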

Additional observations from a re-analysis of the deposited data

How the results depend on the processing

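The count of genes above the bound was 6950 and stayed within 1.5 times of that under every alternative: 6979 with the median over a gene's probe sets, 5926 of 10529 without the marked probe sets, 7835 and 5762 with the 90th and 99th percentile as bound, 6362 with single reference genes, and 6942 to 6983 when 1 array was left out. The catecholamine count of 13 ranged from 10 to 13 and the sympathoadrenal count of 16 from 12 to 20. The midbrain count of 9 of 38 became 13 with the 90th percentile as bound, and 6 with the 99th percentile or with single reference genes. It was 5 of 31 without the marked probe sets, where fewer genes were measured. The percentile of Th, 86.6, became 90.9 with the median over probe sets and 90.01 without the marked ones; the cause was not tested. Leaving out 1 array gave 86.4 to 87.0. Of 54 list counts, 18 moved by over 1.5 times with the 99th percentile, 14 without the marked probe sets, 13 with the 90th percentile, 9 with single reference genes and 4 with the median over probe sets. No paired analysis was possible because the empty vector samples are 1 group, compared with no other. In 1452 of 3537 genes above the bound with several probe sets, the lowest probe set was not above it.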

Other observations

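Some of the brightest genes belong to none of the lists, and those given here were chosen after their values were seen. Pebp1, a phosphatidylethanolamine-binding protein and inhibitor of Raf, had 14.51 ± 0.030 (SD, n = 3), rank 37 of all genes. The noncoding RNA genes Gas5 and Malat1 had 14.23 ± 0.007 and 14.12 ± 0.079, and Lgals1, a galectin, 14.05 ± 0.060. Bex1, Bex2 and Bex3, small brain-expressed X-linked genes, had 13.81, 13.39 and 13.39. Rhox5, a homeobox gene of the reproductive tract, gave 13.27, 13.23 and 13.23 (13.24 ± 0.022), above 97.5% of genes.

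Also bright were some genes linked to the amino acid response, chosen after their values were seen. Atf4, the transcription factor of that response, had 13.87 ± 0.031, Asns, asparagine synthetase, 13.84 ± 0.015 and Nupr1, a stress-response gene, 13.17 ± 0.047. The other genes of the response were not counted. Among imprinted genes 12 of 32 (37.5%) lay above the bound, against 56.1% of all genes. They were led by Gnas at 14.56 ± 0.021, Mest at 13.66 ± 0.025 and Peg3 at 12.31 ± 0.12. Cdkn1c, Igf2 and Meg3 had 5.64, 7.59 and 8.20.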
